A study of Arabidopsis thaliana with 4 samples.

Results

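The SOC1 clade of MADS-box genes and FRUITFULL (FUL) were followed in seedlings of Arabidopsis thaliana that carry the uba2c mutation. Members were taken by locus identifier, as the 6 genes SOC1, AGL42, AGL71, AGL72, AGL14 and AGL19 and the gene FUL, which gave 7 of the 32548 genes in the deposited table. All 7 were found. RNA was sequenced from 2 libraries of the uba2c mutant, labelled uba2c(-/-), and from 2 libraries of wild type in the Col-0 accession. Both genotypes were whole seedlings 2 weeks old, grown on Murashige and Skoog medium under a photoperiod of 16 h of light (23 °C) and 8 h of darkness (22 °C). The labels give neither the kind of uba2c allele, nor the hour of harvest, nor whether a genotype's libraries stem from different batches of plants. The p-values therefore reflect the spread among these libraries, which may be technical. For transcripts that cycle daily, an effect of the hour of harvest cannot be told apart from genotype.

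MADS-domain proteins of this kind act as dimers and larger complexes on CArG boxes in the promoters of their targets. SOC1 gathers signals from the photoperiod, gibberellin, age and vernalization pathways at the shoot apex, where the mobile protein FT and its partner FD, AGL24 and the SPL factors activate it, and where SVP, FLC and FLM repress it. FUL acts beside SOC1 in the floral transition and later in fruit development. AGL42, AGL71 and AGL72 promote flowering at apical and axillary meristems, AGL19 promotes it in a branch that Polycomb proteins repress, and AGL14 acts both in flowering and in root growth.

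Among these genes SOC1 and FUL rose in uba2c seedlings and AGL14 fell. AGL19 was lower in both uba2c libraries without passing the test, AGL42 overlapped between the genotypes, and AGL71 and AGL72 were at or near 0. Values below are the deposited ones, reads per gene brought to one library size by the authors and here called adjusted reads, and changes are log2 differences of uba2c minus wild type from limma on log2(adjusted reads + 0.5), with p-values adjusted by the Benjamini-Hochberg method over 22439 tested genes. Of the 7 members, 5 passed the filter of at least 1 adjusted read in at least 2 libraries. At a false discovery rate (FDR) of 0.05, 2 of the 5 were higher and 1 was lower. Over all tested genes 34.8% passed, with 17.4% higher and 17.4% lower. The 3 calls among 5 members are read against that share. The uba2c libraries lay on one side of both wild type libraries for 4 of the 5 tested members, against 68.1% of all tested genes. An exact permutation test of one gene over 2 against 2 libraries cannot go below p = 0.333, so each single-gene p rests on the spread that limma shares across genes.

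**Figure D1:**
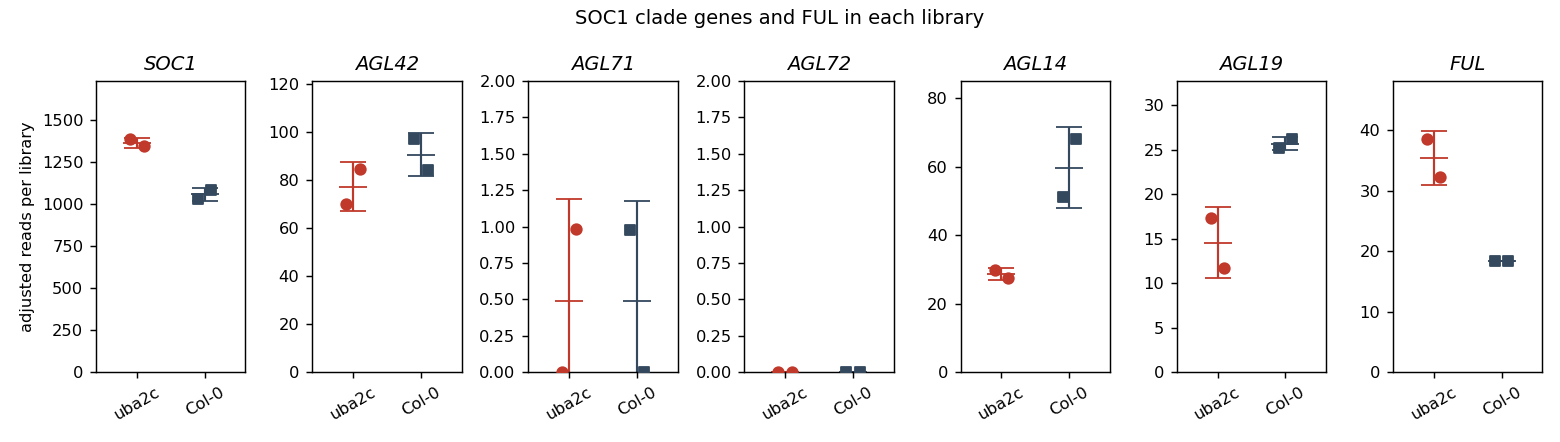
Adjusted reads of the 7 members in each library, with uba2c (red circles) left of Col-0 (dark squares). Bars give the mean and SD of 2 libraries, and each panel has its own axis from 0. SOC1 and FUL lie higher in both uba2c libraries, AGL14 and AGL19 lower, AGL42 overlaps, and AGL71 and AGL72 have 1 read or none.

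The libraries held 19720586 to 19847651 reads when whole reads were recovered from the adjusted values. The UBA2C transcript had 209 and 234 adjusted reads in uba2c, against 799 and 771 in wild type, a log2 change of −1.83 (SE 0.08, limma adjusted p = 2.64e-06), which matches the labels in all 4 libraries. Of 8 reference genes 5 rose and 0 fell, with a median log2 change of 0.17. When libraries were scaled to those genes, the median of all genes moved to −0.15 and the calls changed from 3908 higher and 3901 lower to 2048 higher and 7365 lower. The tested members kept their directions under that scaling, with SOC1 at 0.22, FUL at 0.78, AGL42 at −0.38, AGL14 at −1.18 and AGL19 at −0.97.

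SOC1 (AT2G45660, chromosome 2 from 18807505 to 18811125, minus strand, TAIR10.1) encodes the integrator itself and was by far the most abundant member. It had 1388 and 1347 adjusted reads in the uba2c libraries, against 1033 and 1085 in the wild type libraries. Both uba2c libraries lay above both wild type libraries, and the gap between genotypes exceeded the spread within them. The means were 1367 ± 29.0 in uba2c and 1059 ± 36.7 in wild type (SD, n = 2 each), a log2 change of 0.37 (95% interval 0.26 to 0.48, limma adjusted p = 0.000746), or 1.29-fold. Scaled to the reference genes the change was 0.22 (limma adjusted p = 0.00550, against 6.32e-08 to 0.0981 over all alternatives). With limma the call was lost without uba2c 1 (adjusted p = 0.0981) or without uba2c 2 (0.0927), where no gene at all was called, whereas edgeR on recovered reads kept it (0.0181 and 0.0112). Among 90 other listed genes, the patterns nearest to that of SOC1 over the 4 libraries were those of the reference genes SAND and EF1A, with a root mean square difference of 0.04 and 0.05 in centred log2 values. SAND and EF1A changed by 0.32 and 0.34.

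The upstream sequence of SOC1 is shown for the 2 motifs that the regulators above are known to bind, the CArG box of MADS proteins and GTAC, the core of SPL binding sites. Motifs were searched on both strands of the 1000 bases before the annotated gene start. One CArG box lay 711 bases upstream of SOC1, and it is in capitals in the first window. A CArG box occurs in 7.22% of 27431 upstream windows of that length, and among the members AGL42 was the other gene with one, 598 bases upstream. GTAC lay 202 bases upstream of SOC1, in capitals in the second window, and another match lay 546 bases upstream. GTAC is common, in 39.7% of windows of 300 bases and in 82.3% of windows of 1000 bases. A match describes letters and not binding.
SOC1 CArG window (chr2:18811782-18811881, minus strand, TAIR10.1): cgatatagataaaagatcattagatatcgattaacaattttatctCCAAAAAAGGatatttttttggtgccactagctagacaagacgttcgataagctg
SOC1 GTAC window (chr2:18811276-18811375, minus strand, TAIR10.1): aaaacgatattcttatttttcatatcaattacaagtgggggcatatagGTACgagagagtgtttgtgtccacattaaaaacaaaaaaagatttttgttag

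FUL (AT5G60910, chromosome 5 from 24502434 to 24506269, minus strand) belongs to the AP1 and FUL clade and not to the SOC1 clade, and limits meristem activity as well as promoting flowering. It had 38.5 and 32.3 adjusted reads in uba2c, against 18.4 and 18.4 in wild type. These came from 40 and 33 reads in uba2c and from 19 and 19 reads in wild type. Both uba2c libraries lay above both wild type libraries. The log2 change was 0.92 (95% interval 0.36 to 1.49, limma adjusted p = 0.0215), or 1.89-fold. The summed reads of uba2c were 1.91 times those of wild type (95% exact interval 1.27 to 2.91, counting error only). The interval of this change overlaps that of SOC1. DESeq2 did not call FUL (adjusted p = 0.157), and limma lost it without uba2c 1 (0.103) or uba2c 2 (0.0888), as did edgeR without uba2c 1 (0.0828), with adjusted p from 0.00747 to 0.157 across alternatives. The gene with the nearest pattern was AGL17, another MADS gene, at a root mean square difference of 0.05, and the next was the nitrate transporter gene NRT2.1 at 0.17.

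Upstream of FUL, 2 GTAC motifs stood next to each other, 201 and 196 bases before the gene start, shown in capitals with the base between them, and another lay at 539 bases. No CArG box lay in its 1000 bases. GTAC was not particular to the members that rose: AGL14 had 4 matches in 1000 bases, AGL19 had 3 and AGL42 had 2.
FUL GTAC window (chr5:24506417-24506516, minus strand, TAIR10.1): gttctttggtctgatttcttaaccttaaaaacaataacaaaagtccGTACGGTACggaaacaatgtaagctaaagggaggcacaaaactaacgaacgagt

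AGL14 (AT4G11880, also XAL2, chromosome 4 from 7142922 to 7147391, plus strand) moved the other way. It is known from root work as a gene of stem cell niche patterning and auxin transport. It had 29.8 and 27.5 adjusted reads in uba2c, against 51.2 and 68.0 in wild type. The wild type libraries were spread more widely than the uba2c libraries, and the genotypes did not overlap. The means were 28.7 ± 1.69 in uba2c and 59.6 ± 11.8 in wild type (SD, n = 2 each), a log2 change of −1.03 (95% interval −1.54 to −0.53, limma adjusted p = 0.00835), which is 2.04-fold lower. With 59 reads in uba2c and 123 in wild type reads stood in a ratio of 0.477 (exact 95% limits 0.344 and 0.656). The call was lost in limma without uba2c 1 (adjusted p = 0.144), uba2c 2 (0.161) or wild type 2 (just short of the threshold), and in edgeR without uba2c 1 (0.0599) or uba2c 2 (0.0668), with adjusted p from 8.10e-05 to 0.161 across alternatives.

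AGL19 (AT4G22950, chromosome 4 from 12023824 to 12028004, minus strand), the closest relative of AGL14, had 17.4 and 11.7 adjusted reads in uba2c, against 25.2 and 26.2 in wild type. Both uba2c libraries were the lower ones, and they differed from each other more than the wild type libraries did. The log2 change was −0.82 (95% interval −1.52 to −0.13), at a limma adjusted p of 0.0670, so it did not pass. edgeR on recovered reads called it (adjusted p = 0.0437, in a test that 43.4% of genes passed), as did edgeR on library totals (0.0472), limma with a filter of 10 adjusted reads (0.0450) and limma with scaling to reference genes (0.0272), with adjusted p from 0.0272 to 0.329 across alternatives. Its reads, 30 in uba2c and 53 in wild type, gave a ratio of 0.563 (95% exact interval 0.347 to 0.897).

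The AGL14 and AGL19 upstream windows are shown because they share a run of letters. The longest run common to both 300-base windows was the 16 letters in capitals, 83 bases before the start of AGL14 and 39 bases before that of AGL19. Both strands of all 27431 windows of that length were searched, and 2 of them held it, these 2 genes. The run was defined from these 2 windows, so their holding it was fixed. The search shows only that no other window held all 16 letters. A link between the run and the values was not tested. Most of the run is also present before AGL71, which was near 0 in both genotypes: its window shares 13 of these letters with AGL14, and a run of 14 letters with AGL19. The run was found by comparing the windows after the values were known. Over the other pairs of members the longest common run was between 8 and 20 letters, the longest being an AT repeat in AGL42 and AGL19.
AGL14 window (chr4:7142797-7142896, plus strand, TAIR10.1): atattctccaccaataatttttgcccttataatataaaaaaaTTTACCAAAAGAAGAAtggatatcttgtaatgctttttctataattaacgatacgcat
AGL19 window (chr4:12028005-12028104, minus strand, TAIR10.1): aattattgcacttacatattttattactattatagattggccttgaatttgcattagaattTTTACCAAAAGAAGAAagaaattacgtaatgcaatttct

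Root markers were looked at beside AGL14 and AGL19, and they moved in both directions. In these whole seedlings fewer cells of a type and less RNA per cell cannot be told apart. Of 19 root cell markers 9 fell and 5 rose, where 17.4% of all tested genes were lower and 17.4% higher. None of the markers was at 0 in all libraries, and their median log2 change was −0.76, against −0.00 over all tested genes. Their summed level was 5408 and 5447 adjusted reads in uba2c, against 6722 and 7224 in wild type. The genes nearest in pattern to AGL14 were CASP2 and CASP1, which encode membrane proteins of the Casparian strip in the root endodermis, at root mean square differences of 0.08 and 0.13 over the 4 libraries. CASP1 was also the nearest to AGL19, at 0.16. CASP1 changed by −0.95 and CASP2 by −1.11. Root hair genes fell further, PRP3 by −1.93, EXPA7 by −1.89 and LRX1 by −1.47, and the auxin carrier gene PIN2 of the root tip fell by −0.94. PHO1, a phosphate exporter gene of the root stele, rose by 0.49 and NRT2.1 by 1.02. Also higher were SCR at 0.22, GL2 at 0.23 and TMO5 at 0.63. DESeq2 did not call SCR (adjusted p = 0.135) or GL2 (adjusted p = 0.193). The part of root cell content in the AGL14 and AGL19 values was not tested. PIN4, an auxin carrier gene that AGL14 is known to activate in roots, was at 0.01 and did not pass (limma adjusted p = 0.941).

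AGL42 (AT5G62165, also FYF, chromosome 5 from 24964646 to 24968607, plus strand), known for its expression in the root quiescent centre and for delaying floral organ senescence, was the second most abundant member. It had 70.1 and 84.4 adjusted reads in uba2c, against 97.0 and 84.2 in wild type. The second uba2c library lay between the wild type libraries, so the genotypes overlapped. The log2 change was −0.23 (95% interval −0.60 to 0.14, limma adjusted p = 0.304), and none of 19 alternatives called it, with adjusted p from 0.0847 to 0.715. Its size depended on single libraries: limma gave −0.10 without uba2c 1, −0.36 without uba2c 2, −0.13 without wild type 1 and −0.33 without wild type 2. Reads stood in a ratio of 0.846 (exact 95% limits 0.680 and 1.05, counting error only). The nearest patterns were those of SPCH, of the stomatal lineage, and AGL16, at 0.09 and 0.10. Its CArG box is in capitals below.
AGL42 CArG window (chr5:24964003-24964102, plus strand, TAIR10.1): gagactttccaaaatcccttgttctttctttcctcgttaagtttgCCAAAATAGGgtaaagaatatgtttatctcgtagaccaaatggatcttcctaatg

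AGL71 and AGL72 lie side by side on the minus strand of chromosome 5, AGL72 (AT5G51860) from 21081844 to 21084427 and AGL71 (AT5G51870) from 21085462 to 21088414. AGL71 had 0 and 1 reads in uba2c, against 1 and 0 in wild type. AGL72 had no read in any library, and a count of 0 allows up to 3 reads per library, a floor that covers counting error only. Neither was tested, and no fold is given. Of all stretches of 50 bases, the read length, in the annotated transcripts of the 7 members, 0 occur in transcripts of another gene. None of the 7 members overlaps another annotated gene on either strand.

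Per length, SOC1 stood far above its relatives in both genotypes. As level per kb of annotated exon, SOC1 reached 880 ± 18.7 adjusted reads per kb in uba2c and 682 ± 23.6 in wild type (SD, n = 2 each). In uba2c it was followed by AGL42 at 48.2 ± 6.31, FUL at 27.2 ± 3.37, AGL14 at 19.2 ± 1.13 and AGL19 at 11.9 ± 3.24 adjusted reads per kb. In wild type it was followed by AGL42 at 56.5 ± 5.64, AGL14 at 39.8 ± 7.91, AGL19 at 20.9 ± 0.567 and FUL at 14.1 in both libraries. No neighbours in these orders overlapped in their libraries, apart from AGL71 and AGL72 at the bottom, which were both at or under the floor. FUL thus ranked above AGL14 and AGL19 in uba2c and below both in wild type. SOC1 made up 89.3% and 89.1% of the summed level of the members per kb in uba2c, against 83.6% and 84.0% in wild type. That sum itself was 1001 and 973 adjusted reads per kb in uba2c, against 795 and 832 in wild type.

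Ratios between members within 1 library do not depend on scaling between libraries. FUL stood at 1.48 and 1.35 times the level of AGL14 per kb in uba2c, against 0.413 and 0.311 times in wild type, so the order of these genes was the opposite one in each genotype. FUL to AGL19 was 2.09 and 2.60 in uba2c, against 0.689 and 0.664 in wild type. SOC1 to AGL14 was 44.8 and 47.3 in uba2c, against 19.4 and 15.4 in wild type. In each of these ratios both uba2c libraries were above both wild type libraries. SOC1 to FUL was lower in uba2c, at 30.2 and 34.9 against 47.1 and 49.4 in wild type. The AGL14 to AGL19 ratio overlapped, at 1.41 and 1.92 in uba2c and 1.67 and 2.13 in wild type.

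**Figure D2:**
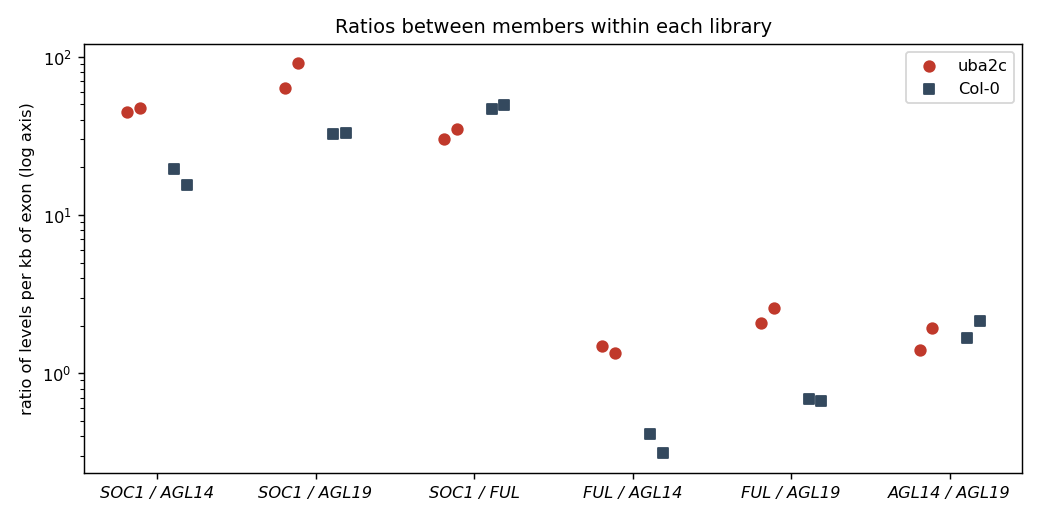
Ratios of levels per kb of exon between members within each library, on a log axis, with uba2c (red circles) left of Col-0 (dark squares). FUL lies above AGL14 and AGL19 in uba2c and below both in Col-0, and the AGL14 to AGL19 ratio overlaps.

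The genes that feed into SOC1 and FUL were taken from lists of known regulators. FT, the florigen, rose to 43.4 and 30.3 adjusted reads in uba2c, against 5.79 and 8.74 in wild type, a log2 change of 2.27 (SE 0.34, limma adjusted p = 0.00168). The counts passing in this and the following lists stand beside 34.8% of all tested genes, 17.4% higher and 17.4% lower. Of 11 activators 9 were tested, of which 1 rose and 2 fell, with a median of 0.22. The 2 that fell were AGL24, a direct partner of SOC1 at −0.57 (limma adjusted p = 0.0105, and 0.0604 with DESeq2, with adjusted p from 0.000870 to 0.119 across alternatives), and SPL9, an age-pathway factor, at −0.70. SPL15 had no read in any library. FD, the bZIP partner of FT, had 61.7 and 53.9 adjusted reads in uba2c, against 70.7 and 74.7 in wild type, and did not pass (log2 change −0.33, limma adjusted p = 0.155).

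Repressors of SOC1 and FT were lower more often than not. Of 7 MADS repressors 4 fell and 0 rose, with a median of −1.17. FLM had 181 and 190 adjusted reads in uba2c, against 624 and 596 in wild type (log2 change −1.71), and MAF4 and MAF5 changed by −2.16 and −1.17. SVP, which represses SOC1 together with FLM, changed by −0.14 (limma adjusted p = 0.0281, and 0.116 with DESeq2, in a range of 0.000437 to 0.191). Of 8 AP2 and RAV repressors 6 fell and 0 rose, with a median of −0.52. TEM2 changed by −1.19, TOE1 by −0.72, AP2 by −0.65, TOE3 by −0.58, TOE2 by −0.36 and TEM1 by −0.31. AP2, TOE1 and TOE3 are among the genes that FUL is known to repress. In the same list SNZ and SMZ changed by −0.18 and −0.46 and did not pass (limma adjusted p = 0.139 and 0.216). A link between FUL and these changes was not tested.

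**Figure D3:**
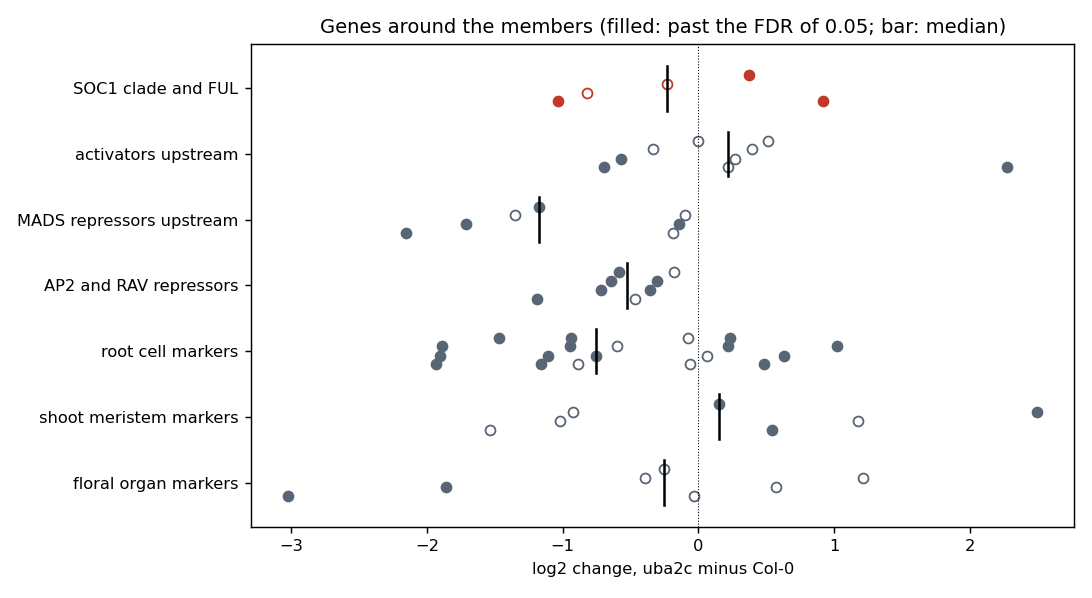
Log2 changes of uba2c minus Col-0 for the tested SOC1 clade genes and FUL (red) and for tested genes of 6 lists (grey). Filled points passed the FDR of 0.05, open points did not, and the bar is the median of each row. No AP2 or RAV repressor and no MADS repressor lies above 0.

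Meristem identity genes downstream of the members were at or near 0 in these seedlings. LFY, the meristem identity gene that SOC1 is known to activate, had 0 and 1 reads in uba2c, against 0 and 2 in wild type. AP1 had 1 and 1 reads in uba2c, against 0 and 2 in wild type, and neither gene was tested. Among genes that SOC1 is known to repress, the cold regulators CBF1, CBF2 and CBF3 fell, with log2 changes of −1.52, −1.64 and −2.18. TFL1, in the same list of targets, was at 0.01 and did not pass (limma adjusted p = 0.989). A link between SOC1 and the CBF changes was not tested. SAUR10, a growth gene that FUL is known to repress, rose by 0.83 (limma adjusted p = 0.0238, and 0.0782 with DESeq2, in a range of 0.000585 to 0.274). Of the 10 genes in this list of targets 7 were tested, of which 1 rose and 3 fell.

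Markers of the shoot meristem were looked at beside SOC1 and FUL. Of 9 such markers 7 were tested, of which 3 rose and 0 fell, and CLV3 and WUS were at 0 in every library. By direction alone 4 of the 7 lay above 0 and 3 below it. Those below were CUC1, CUC2 and CUC3, at −0.93, −1.54 and −1.02. They had 1 to 10 reads per library and did not pass. The 9 markers summed to 1722 and 1749 adjusted reads in uba2c, against 1447 and 1568 in wild type, most of it CLV1. STM had 36.4 and 51.1 adjusted reads in uba2c, against 6.77 and 7.76 in wild type (log2 change 2.49), and KNAT1 rose by 0.55 (limma adjusted p = 0.0182, and 0.108 with DESeq2, with adjusted p from 0.00294 to 0.116 across alternatives). CLV1 changed by 0.15, a call that ended with scaling to reference genes (0.01, limma adjusted p = 0.931, in a range of 0.00549 to 0.931). Of 9 floral organ markers 7 were tested, of which 2 fell and 0 rose, AP3 with a log2 change of −3.02 and AG with −1.86, a call that DESeq2 did not make for AG (adjusted p = 0.152, with adjusted p from 0.00119 to 0.242 across alternatives). The summed level of that list was 159 and 163 adjusted reads in uba2c, against 209 and 209 in wild type. Of 8 leaf markers 2 rose and 4 fell, with RBCS1A at 0.28, RCA at 0.23, LHCA1 at −0.38, FAMA at −0.39, LHCB1.3 at −0.18 and LHCB2.1 at −0.14, the last of which turned to 0.067 with quantile normalisation. RBCS1A and LHCB1.3 were at 0 under that normalisation, where as the highest ranked genes they take the same value in each library, and RBCS1A (0.13, limma adjusted p = 0.0838) and RCA (0.085, limma adjusted p = 0.195) lost their calls with scaling to reference genes. Across alternatives the adjusted p reached from 1.61e-08 to 1 for RBCS1A and from 2.42e-07 to 0.195 for RCA. The part of meristem, flower or leaf content in the SOC1 and FUL values was not tested.

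The tested members, from −1.03 for AGL14 to 0.92 for FUL, lay within the range of the wider MADS family. That range ran from −3.02 for AP3 to 1.21 for SEP2, which did not pass. Of 32 other MIKC-type MADS genes 24 were tested, of which 2 rose and 8 fell, where 34.8% of all tested genes passed. The median of these MADS genes was −0.16. Among them FUL, at 0.92, stood between AGL17 at 0.98 and SEP4, a meristem identity gene, at 0.61, and was nearer to AGL17. AGL14 stood near MAF5. The MADS genes outside the members that passed with a rise were SEP4 and AGL17.

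**Figure D4:**
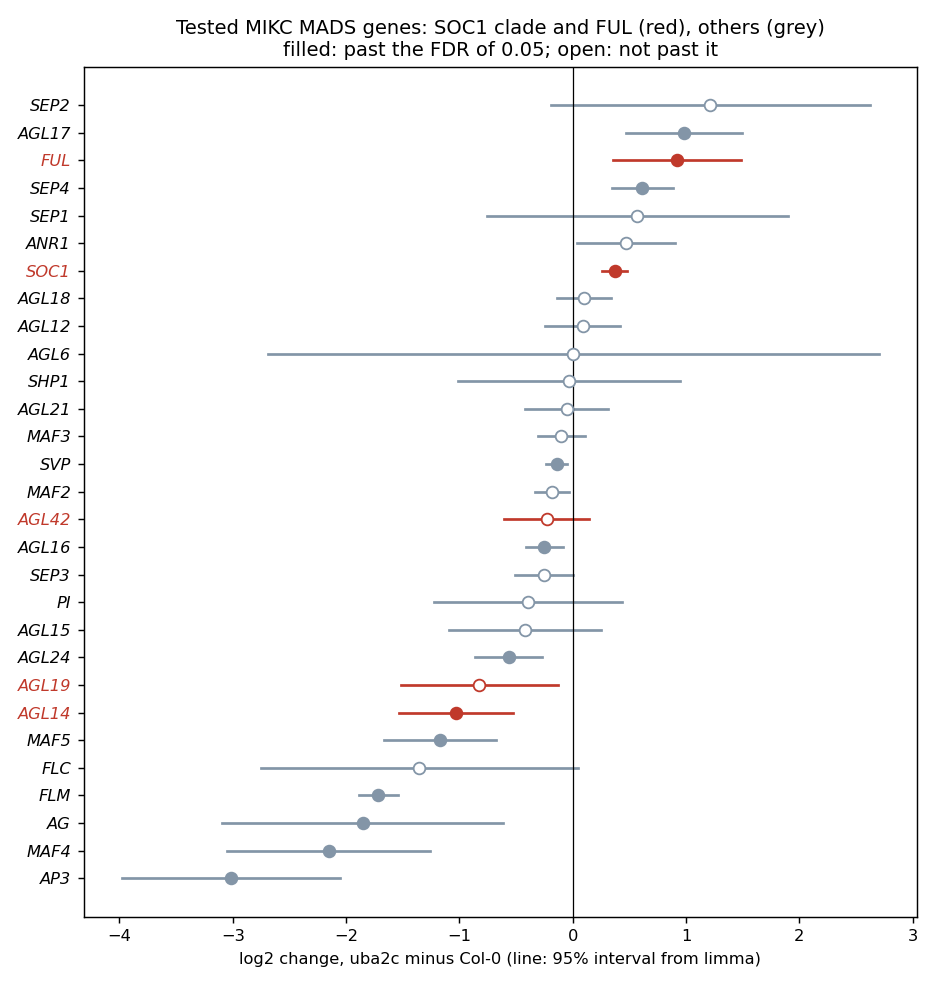
Log2 change of uba2c minus Col-0 with its 95% interval from limma for the 5 tested members (red) and 24 other tested MIKC MADS genes (grey), filled where the FDR of 0.05 was passed. FUL lies near the top and AGL14 and AGL19 in the lower part, with AGL42 between them.

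The direction of each tested member was the same in all 19 alternatives, which changed the pseudocount, filter, scaling, test or block or left out a library. The calls were less even: SOC1 passed in 17 of 19, FUL in 15, AGL14 in 14, AGL19 in 4 and AGL42 in 0.

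**Figure D5:**
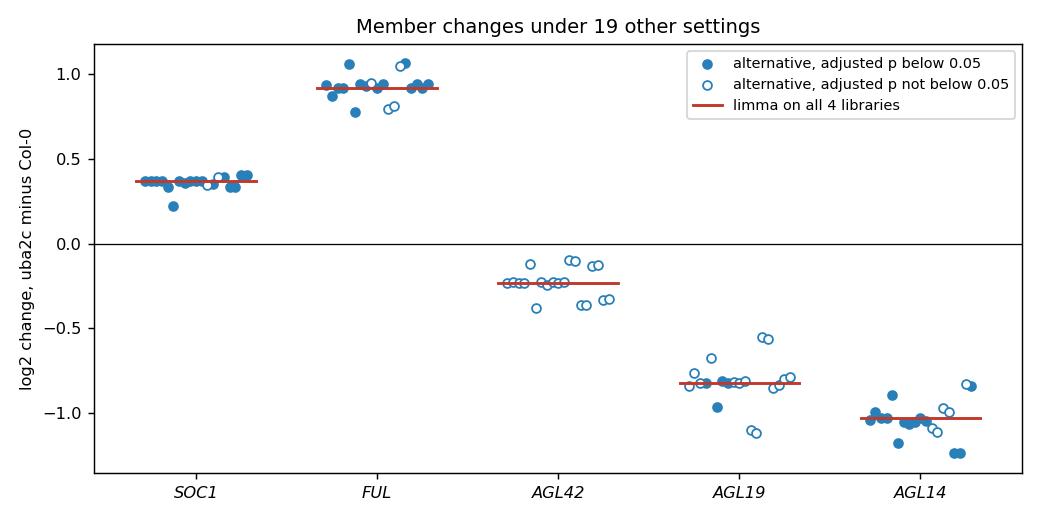
Log2 change of uba2c minus Col-0 for the 5 tested members under 19 alternatives (blue points, filled where the adjusted p is below 0.05), beside the limma value on all 4 libraries (red line). SOC1 ranges from 0.22 to 0.41, FUL from 0.78 to 1.06, and AGL14 from −1.24 to −0.83.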

How the data were processed

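The submitters' processing notes name TAIR10 and the tools HISAT2, featureCounts, edgeR, FastQC and SAMtools 1.9; the labels do not state how strand was used. The authors deposited a signal per gene, a read number brought to a common library size, from single-end reads of 50 bp per the labels. The values behave as edgeR pseudo-counts made within each genotype, and all came back to whole reads, with a largest distance from a whole number of 0.0196 reads. Replicates differed by more than sampling noise (chi-square over its degrees of freedom 1.97 for uba2c and 1.49 for wild type).

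limma 3.58.1 with a mean-variance trend (R 4.3.3) was fitted to the whole table with genotype as its term, two-sided. edgeR 4.0.16 and DESeq2 1.42.0 on recovered reads were alternatives. The steps were tested on simulated data, but no outcome is given here, so this does not bear on the calls of single members. All 32548 identifiers matched RefSeq TAIR10.1, which gave coordinates, lengths and sequence; the table itself holds no coordinates. Levels per kb use the union of annotated exons.

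The members and the gene lists were chosen with earlier results of these data known. Besides the members, UBA2C, FT, SVP, FLM, AGL24, LFY and AP1, the rule names up to 6 genes per list by p among those past the FDR without overlap, and the 2 listed genes nearest in pattern to each tested member. Other genes named are further list members, chosen after their values were seen.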

Additional observations from a re-analysis of the deposited data

How the results depend on the processing

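Every tested member kept its direction in all 19 alternatives. DESeq2 called 4807 genes in place of 7809 and left FUL at 0.95 without a call. AGL19 gained a call with edgeR on recovered reads (−0.81), with edgeR on library totals (−0.82), with a filter of 10 adjusted reads (−0.82) and with scaling to reference genes (−0.97). Leaving out each library in turn, limma gave 0 to 6519 genes past the FDR and 0 to 40 of the listed genes, with SOC1 between 0.33 and 0.40, FUL between 0.80 and 1.05 and AGL14 between −1.23 and −0.83. edgeR gave 4839 to 7320 genes and 34 to 42 listed genes, with SOC1 between 0.34 and 0.41, FUL between 0.81 and 1.06 and AGL14 between −1.24 and −0.84; without uba2c 1 or uba2c 2 it called 4839 and 5046 genes and left AGL14 at −1.11 and −0.99. The counts of 0 came from limma without uba2c 1 or uba2c 2, where 7513 and 7412 genes had an unadjusted p under 0.05. With the replicate number as a block limma called 8025 genes and edgeR 9397, with SOC1 at 0.37, and no member's call changed against limma. Same-numbered libraries did not deviate together over genes (r = 0.0083). With 2 libraries per genotype this cannot show whether same-numbered libraries were handled together. LHCB2.1 turned to 0.067 with quantile normalisation. With coding length in place of exon length SOC1 made up 90.0% of the members' level in uba2c and 84.7% in wild type. AGL19, FUL and AGL14 rest on 12 to 70 reads per library, which limits their precision.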

Other observations

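The MADS genes of the AGL17 clade had values in both directions, and the difference between them was not tested. They were chosen after their values were seen, because AGL17 had the pattern nearest to that of FUL. AGL17 had 49.1 and 42.1 adjusted reads in uba2c, against 22.3 and 23.3 in wild type (log2 change 0.98, limma adjusted p = 0.0107). AGL16 was lower, with a log2 change of −0.25 (limma adjusted p = 0.0262). DESeq2 called neither AGL17 (adjusted p = 0.0762) nor AGL16 (adjusted p = 0.148). ANR1, a regulator of lateral root growth on nitrate, had 83.7 and 89.3 adjusted reads in uba2c, against 72.8 and 53.2 in wild type, and did not pass (limma adjusted p = 0.0859). AGL21 was at −0.05 and did not pass (limma adjusted p = 0.819). AGL12, a root MADS gene outside that clade, was at 0.09 (limma adjusted p = 0.670).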
